A study of Mus musculus with 12 samples.

Results

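The mixed lineage kinases and their closest relatives among the MAP kinase kinase kinases are described here in mouse lung endothelial cells. The genes were Map3k9 (encoding MLK1), Map3k10 (MLK2), Map3k11 (MLK3), Map3k12 (the dual leucine zipper kinase DLK) and Map3k13 (the leucine zipper kinase LZK). Members were taken by gene symbol from the deposited transcript table, each transcript on its own and summed per gene identifier. They were 5 of 23422 genes and 12 of 52655 transcripts. Map3k10 had 3 transcripts in the table, Map3k12 had 6, and Map3k9, Map3k11 and Map3k13 had 1 each.

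The mixed lineage kinases sit near the top of a relay of kinases. Activated by the small GTPases Rac1 and Cdc42 or by MAP4 kinases, they phosphorylate Map2k4 and Map2k7, which in turn phosphorylate the JNK kinases, and several also feed the p38 branch. MLK3 is broadly expressed, whereas DLK and LZK are known mainly for their part in the response of neurons to axon injury.

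Primary endothelial monolayers came from lungs of C57BL/6J mice (wild type) or of Mlk2-/-Mlk3-/- mice (double knockout). Oxygen was 21% (normoxia) or, for 90 minutes, 1% (hypoxia), and each of the 4 groups has 3 libraries. The series asked which pathways lie downstream of the kinase family. The labels do not give the exons removed by either allele, the promoter or agent used to make the alleles, the strain background of the double knockout, the age or number of animals, or whether cells were pooled. Nothing says that the libraries of a group are separate cultures, so the p-values measure only the spread between these libraries.

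Levels are in FPKM, a fragment count scaled to transcript length and to library size, and so can be compared between genes. Each library held an estimated 20900000 to 25600000 fragments and 11281 to 11410 genes at 1 FPKM or more. All 9 endothelial markers were above 1 FPKM on average, and their summed level was 3969 to 4257 FPKM in the wild type libraries and 4000 to 4266 FPKM in the double knockout libraries. Summed leukocyte markers (Ptprc, Cd68, Csf1r and Lyz2) were at 20.0 to 28.6 FPKM in wild type and 59.4 to 72.4 FPKM in the double knockout, mostly from Lyz2, while Ptprc reached at most 1.28 FPKM and Csf1r 0.390 FPKM. Summed fibroblast markers (4 genes) were at 1.57 to 2.33 FPKM against 3.72 to 4.15 FPKM, and summed mural cell markers (5 genes) at 2.15 to 4.13 FPKM against 4.52 to 6.44 FPKM. Summed lymphatic endothelial markers (3 genes) were at 411 to 507 FPKM in wild type and 315 to 366 FPKM in the double knockout. The part of these differences in the genotype comparisons was not tested. The 3 epithelial markers together did not exceed 0.149 FPKM. In such bulk RNA, fewer cells of a type and less RNA per cell cannot be told apart.

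Most of the Map3k10 signal of wild type cells was assigned to a short transcript, and the sequences where it parts from the full-length transcript are shown for that reason. ENSMUST00000036453 has 10 exons, 3682 bases and a coding sequence of 2823 bases with its stop codon. ENSMUST00000138243 has 2 exons, 1621 bases and a coding sequence of 870 bases with its stop codon. Both lie on the minus strand of GRCm38 chromosome 7 (chr7:27656375-27674594 and chr7:27668148-27674581, GENCODE M21). They share 1420 bases, of which the first 863 coding bases run to the end of the full-length transcript's exon 2, and the short transcript then reads on for 201 bases of its own. The sequences below run 5′ to 3′ from 40 shared bases before that point, and the capitals mark the bases after it.
ENSMUST00000036453: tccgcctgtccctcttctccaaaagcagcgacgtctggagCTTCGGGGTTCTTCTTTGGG
ENSMUST00000138243: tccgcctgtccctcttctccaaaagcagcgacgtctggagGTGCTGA
The capitals of ENSMUST00000138243 end in its stop codon, while those of ENSMUST00000036453 are the first 20 bases of the next exon. The annotation thus gives the short transcript an open reading frame that stops before most of the coding sequence of the full-length one.

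**Figure D1:**
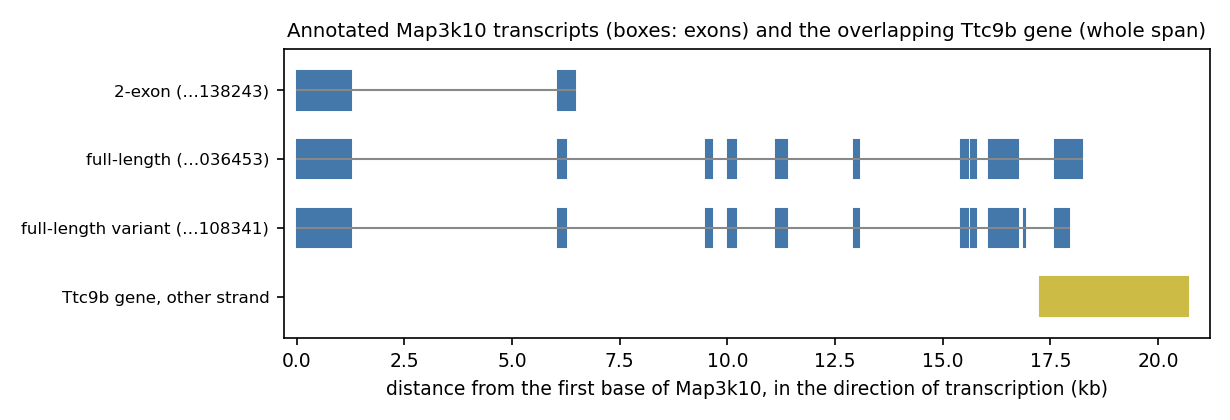
The 3 Map3k10 transcripts of the deposited table as annotated in GENCODE M21, with exons as boxes, and the whole span of Ttc9b on the other strand. The horizontal axis is the distance from the first base of Map3k10 in kb, and the 2-exon transcript covers only the start of the gene.

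Map3k10, the gene of MLK2, was nearly absent from the double knockout in normoxia and was low but detected there in hypoxia. Summed over its transcripts, it read 18.9, 18.3 and 19.2 FPKM in normoxic wild type cells and 19.1, 16.6 and 16.7 FPKM in hypoxic ones. Double knockout cells read 0.145, 0.169 and 0.131 FPKM when normoxic and 1.34, 1.15 and 1.02 FPKM when hypoxic. Every double knockout library lay below every wild type library, and the hypoxic double knockout libraries all lay above the normoxic ones. The gene passed the expression filter (1 FPKM or more on average over all 12 libraries) through its wild type libraries.

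Map3k11, the gene of MLK3, was lower in the double knockout but far from absent. Normoxic wild type cells read 36.4, 33.8 and 34.0 FPKM and hypoxic ones 32.4, 34.4 and 31.9 FPKM. Double knockout cells read 11.5, 10.9 and 11.1 FPKM when normoxic and 12.2, 11.5 and 11.2 FPKM when hypoxic. The genotypes did not overlap, and within each genotype the oxygen levels did. The only Map3k11 transcript in the table has 12 exons (chr19:5689037-5702865, plus strand), so the file does not show from which exons the remaining signal came. An estimated 873 to 1010 fragments lay behind each double knockout value.

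**Figure D2:**
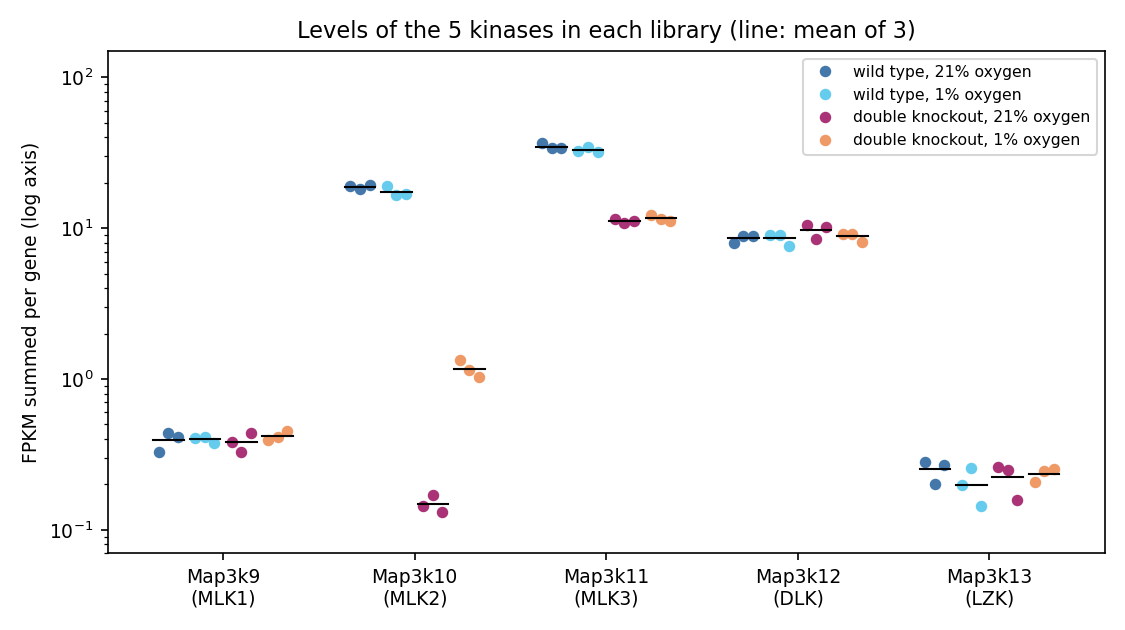
FPKM of the 5 kinases on a log axis, with a point per library, a colour per group and a line at the mean of 3 libraries. Map3k10 and Map3k11 are lower in all 6 double knockout libraries, whereas the groups of Map3k9, Map3k12 and Map3k13 overlap.

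In limma, fitted to all genes on log2(FPKM + 1), 2 of the 3 tested kinases were lower in the double knockout at each oxygen level, at an adjusted p below 0.05. These 2, Map3k10 and Map3k11, are the genes that the double knockout targets, so their count is no result about the family. Of the 11378 tested genes, 8.16% passed in normoxia (4.32% lower in the double knockout) and 16.1% in hypoxia (8.42% lower). Fold changes are given on that log scale, which understates changes at low levels. Map3k10 fell by 4.11 in normoxia (SE 0.0704, limma adjusted p = 8.25e-12) and fell by 3.09 in hypoxia (SE 0.0704, limma adjusted p = 2.33e-10). With 0.1 in place of 1 as the pseudocount it fell by 6.25 in normoxia, more than 1.5 times as far. Map3k11 fell by 1.55 in normoxia (SE 0.0476, limma adjusted p = 2.49e-09) and fell by 1.43 in hypoxia (limma adjusted p = 6.78e-09).

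Map3k12, the gene of DLK, did not differ detectably between the genotypes. Normoxic wild type cells read 7.95, 8.84 and 8.86 FPKM and hypoxic ones 9.03, 9.05 and 7.64 FPKM. Double knockout cells read 10.4, 8.53 and 10.2 FPKM when normoxic and 9.16, 9.20 and 8.05 FPKM when hypoxic. All 4 groups overlapped. Its log2 difference between double knockout and wild type was 0.16 in normoxia (95% interval -0.02 to 0.35, limma adjusted p = 0.302) and 0.04 in hypoxia (-0.15 to 0.22, limma adjusted p = 0.824). The intervals leave room for a rise of up to 0.35 on the log2 scale in the double knockout in normoxia.

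Map3k9 and Map3k13 were expressed at low levels in every library. Map3k9 (MLK1) read 0.328, 0.437 and 0.410 FPKM in normoxic and 0.406, 0.409 and 0.378 FPKM in hypoxic wild type cells, and 0.383, 0.330 and 0.439 FPKM in normoxic and 0.394, 0.411 and 0.455 FPKM in hypoxic double knockout cells. Map3k13 (LZK) read 0.282, 0.203 and 0.270 FPKM in normoxic and 0.198, 0.258 and 0.143 FPKM in hypoxic wild type cells, and 0.262, 0.249 and 0.158 FPKM in normoxic and 0.207, 0.247 and 0.253 FPKM in hypoxic double knockout cells. The groups overlapped for both genes, and neither reached the expression filter. In the limma fit without that filter (21558 genes), the log2 difference between genotypes was -0.01 for Map3k9 (95% interval -0.10 to 0.08) and -0.03 for Map3k13 (-0.13 to 0.07) in normoxia. In hypoxia it was 0.02 for Map3k9 (-0.07 to 0.11) and 0.04 for Map3k13 (-0.06 to 0.14). No comparison called either gene there, where 3.79% of genes passed for genotype in normoxia, 7.62% for genotype in hypoxia, 8.95% for hypoxia in wild type, 20.1% for hypoxia in the double knockout and 0.0881% for the difference of these responses.

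Over both oxygen levels, a two-sided exact permutation test of 6 against 6 libraries compared the genotypes gene by gene, with Benjamini-Hochberg adjustment over 10 tests (5 genes, genotype and oxygen). The smallest p it can give is 0.00216. Map3k10 and Map3k11 each reached that value (adjusted p = 0.0108, exact permutation test). Map3k12 averaged 9.27 ± 0.929 FPKM in the double knockout and 8.56 ± 0.608 FPKM in wild type (SD, n = 6, exact permutation p = 0.154, adjusted 0.512). Map3k9 averaged 0.402 ± 0.0446 against 0.395 ± 0.0378 FPKM (SD, n = 6, exact permutation p = 0.755), and Map3k13 0.229 ± 0.0400 against 0.226 ± 0.0535 FPKM (SD, n = 6, exact permutation p = 0.905). Neither of these differences exceeded the spread between libraries.

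**Figure D3:**
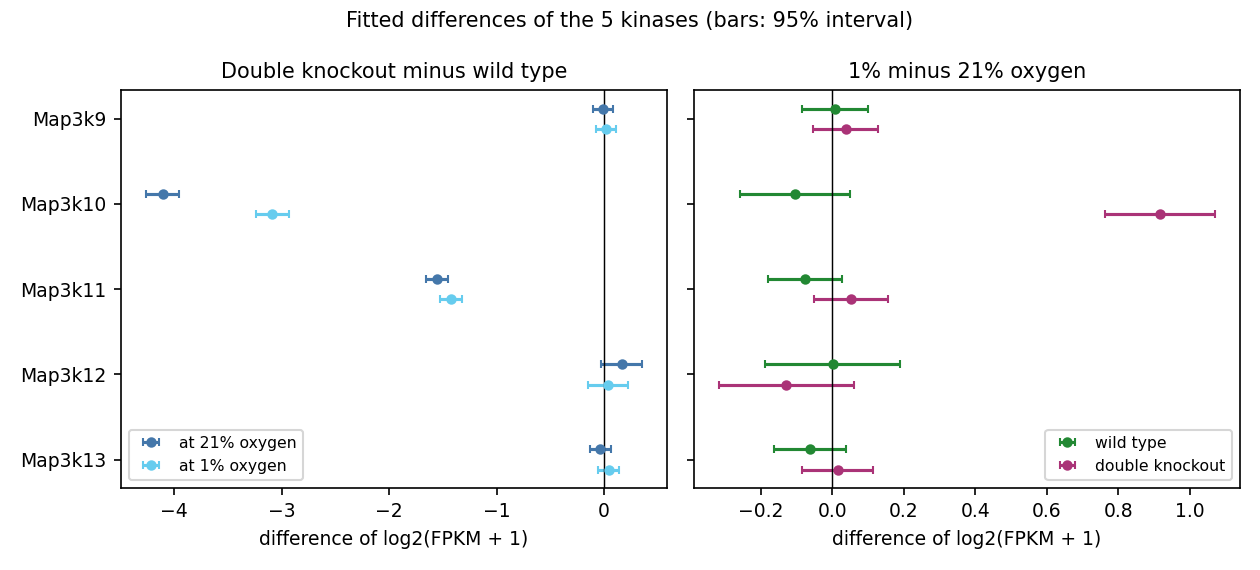
Differences of log2(FPKM + 1) from limma with 95% intervals, between genotypes at each oxygen level (left) and between oxygen levels in each genotype (right). Map3k9 and Map3k13 come from the fit without the expression filter. Intervals clear of 0 belong to Map3k10 and Map3k11 on the left and to Map3k10 in the double knockout on the right.

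Ordered by level in wild type, Map3k11 (33.8 ± 1.61 FPKM) stood above Map3k10 (18.1 ± 1.19), Map3k12 (8.56 ± 0.608), Map3k9 (0.395 ± 0.0378) and Map3k13 (0.226 ± 0.0535; SD, n = 6), with no overlap between neighbours. The place of Map3k10 rests on its 2-exon transcript, at 14.8 ± 1.24 FPKM in wild type. Its full-length transcript ENSMUST00000036453 averaged 3.12 ± 0.652 FPKM there (SD, n = 6), below Map3k12. In the double knockout the order of Map3k11 (11.4 ± 0.455 FPKM) and Map3k12 (9.27 ± 0.929) was unchanged, still without overlap. Map3k10 changed its place there. It lay below both Map3k9 and Map3k13 in normoxia, overlapping Map3k13, and above both in hypoxia. By mean level over the 12 libraries, Map3k11 ranked 3929 among the 23422 genes, Map3k10 ranked 6553, Map3k12 6717, Map3k9 12762 and Map3k13 13605.

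The 5 genes together summed to 61.1 ± 2.43 FPKM in wild type and 22.0 ± 1.16 FPKM in the double knockout (SD, n = 6). Map3k11 made up 55.3 ± 1.57% of the sum in wild type and 51.9 ± 1.54% in the double knockout. The share of Map3k12 was 14.0 ± 0.928% in wild type and 42.2 ± 3.34% in the double knockout, while its own level overlapped between the genotypes. The share of Map3k10 was 29.7 ± 1.34% in wild type, 0.690 ± 0.131% in double knockout normoxia (n = 3) and 5.24 ± 0.441% in double knockout hypoxia (n = 3). Most of its wild type share was the 2-exon transcript. Map3k9 and Map3k13 made up 1.83 ± 0.209% and 1.05 ± 0.206% of the double knockout sum. MLK3 and DLK transcripts were thus the bulk of the RNA of these 5 genes that remained in the double knockout. Zak (Map3k20), listed below with the other MAP kinase kinase kinases, is not in this sum. It was at 40.2 to 46.3 FPKM over the 12 libraries.

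**Figure D4:**
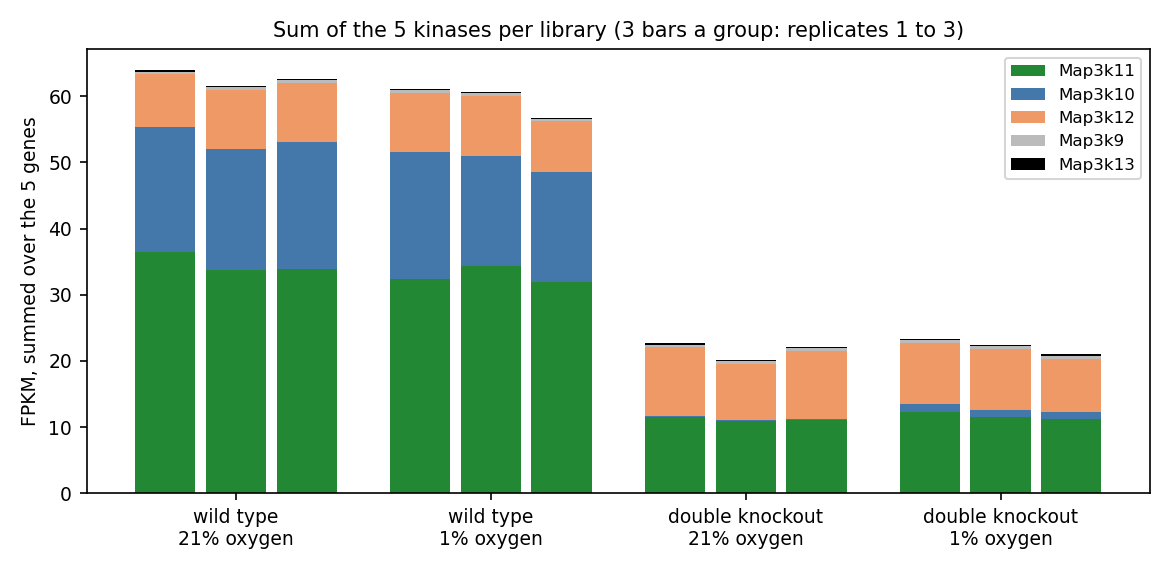
FPKM of the 5 kinases stacked in each library, with 3 bars for each group. The double knockout bars end between 20.2 and 23.3 FPKM and the wild type bars between 56.8 and 63.9 FPKM, and Map3k12 is the band of similar height in all of them.

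Low oxygen for 90 minutes left the tested kinases without a call in wild type cells. None of the 3 passed in limma (0 at an unadjusted p below 0.05), where 20.8% of all tested genes did. Below that unadjusted p were 3909 of all 11378 tested genes. In the double knockout 39.3% of all tested genes passed (19.6% higher), and Map3k10 was the kinase among the 3 that did. Its double knockout libraries averaged 0.659 FPKM, below the expression filter, so it was tested there only through its wild type level. Its level there was 7.89 times as high in hypoxia as in normoxia (log2 difference 0.92, SE 0.0704, limma adjusted p = 3.12e-06), while in wild type the log2 difference was -0.10 (95% interval -0.26 to 0.05, limma adjusted p = 0.333). With a pseudocount of 0.1 the difference in the double knockout was 2.35.

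The hypoxia response of Map3k10 differed between the genotypes by 1.02 (SE 0.0995, 95% interval 0.80 to 1.24, limma adjusted p = 0.00375). Over the other settings the difference ranged from 0.96 to 2.46 and the limma adjusted p from 1.86e-05 to 0.0285. Of all tested genes, 0.193% (22 genes, and 1 to 39 genes when a library was left out) passed that test, and the other 2 tested kinases did not. For Map3k11 the log2 change with hypoxia was -0.08 in wild type (95% interval -0.18 to 0.03) and 0.05 in the double knockout (-0.05 to 0.16), and their difference was 0.13 (-0.02 to 0.28, limma adjusted p = 0.381). For Map3k12 it was 0.00 in wild type (-0.19 to 0.19) and -0.13 in the double knockout (-0.32 to 0.06), with a difference of -0.13 (-0.40 to 0.14, limma adjusted p = 0.653). Without the filter, the log2 changes of Map3k9 were 0.01 in wild type (-0.08 to 0.10) and 0.04 in the double knockout (-0.05 to 0.13). Those of Map3k13 were -0.06 (-0.16 to 0.04) and 0.02 (-0.08 to 0.12). Over both genotypes, exact permutation tests of 6 hypoxic against 6 normoxic libraries gave p = 0.372 for Map3k9, 0.379 for Map3k12 and 0.459 for Map3k13 (adjusted 0.758 to 0.765). For Map3k10 and Map3k11 the gap between genotypes lies within each group of that test and sets its spread, so it is not given.

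Most of the wild type Map3k10 signal and the hypoxic rise in the double knockout lay in different transcripts. The 2-exon ENSMUST00000138243 read 15.8, 15.7 and 15.7 FPKM in normoxic and 14.9, 13.1 and 13.3 FPKM in hypoxic wild type cells, and its value was exactly 0 in every double knockout library. The full-length ENSMUST00000036453 read 2.55, 2.61 and 2.73 FPKM in normoxic and 4.25, 3.46 and 3.15 FPKM in hypoxic wild type cells. It supplied all but a trace of the double knockout values given above for the gene. Its hypoxic libraries lay above its normoxic ones in both genotypes, whereas for the 2-exon transcript the hypoxic wild type libraries lay below the normoxic ones.

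Of 21445 transcripts tested, 2.65% passed between the genotypes in normoxia (1.34% lower in the double knockout) and 5.93% in hypoxia (2.94% lower), among them the full-length, the 2-exon and the Map3k11 transcripts at both oxygen levels. The 2-exon transcript met the transcript filter (0.5 FPKM or more on average over all 12 libraries) only through its wild type libraries. The full-length transcript fell by 1.66 on the log2 scale in normoxia (SE 0.104, limma adjusted p = 2.07e-05) and fell by 1.08 in hypoxia (limma adjusted p = 0.000299). Its mean in the double knockout was 5.64% of wild type in normoxia and 32.3% in hypoxia. With hypoxia it rose in the double knockout by 0.92 (SE 0.104, limma adjusted p = 0.000225), where 20.5% of transcripts passed (10.8% higher). In wild type its log2 difference was 0.34 (95% interval 0.11 to 0.57, unadjusted p = 0.00789, limma adjusted p = 0.0766), which did not pass, as 7.77% of transcripts did. The difference between these responses was 0.57 (0.25 to 0.90, limma adjusted p = 0.218) and did not pass either. That test called 0 of the 21445 transcripts in limma, with 2364 at an unadjusted p below 0.05. The summed gene and its only remaining transcript therefore gave different calls for this difference. For the 2-exon transcript, the log2 difference with hypoxia in wild type was -0.18 (-0.33 to -0.03, limma adjusted p = 0.137). Its double knockout values of 0 add no spread to the SE shared by all groups, so this interval may be too narrow.

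The full-length transcript held 13.5, 14.2 and 14.2% of the Map3k10 sum in normoxic wild type cells and 22.2, 20.9 and 18.8% in hypoxic ones, so these groups did not overlap. In all 6 double knockout libraries it held nearly all of the sum. Over both oxygen levels the share was 17.3 ± 3.81% in wild type against 100% in the double knockout (SD, n = 6). The share test took the transcript of highest mean share over all 12 libraries, a place this one held through the double knockout. In wild type the 2-exon transcript led, at 77.8 to 85.8%. The p-value of that test by genotype is therefore not given. An estimated 212 to 226 fragments lay behind the full-length values in wild type normoxia and 265 to 337 in hypoxia. For the double knockout the estimates were 10.8 to 13.8 fragments in normoxia and 75.5 to 104 in hypoxia. Reads in the 1420 shared bases fit both transcripts, so the shares, and the values of exactly 0, rest on how the authors' software divided them.

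The other full-length form, ENSMUST00000108341, has 11 exons and shares 3393 of its 3403 bases with ENSMUST00000036453. It was at 0.540, 0.00112 and 0.735 FPKM in normoxic wild type cells, and at 0.000103, 6.39e-05 and 0.243 FPKM in hypoxic ones. All double knockout values were at most 9.78e-07 FPKM. The spread within wild type normoxia was as wide as the level itself, and its mean was below the limit for the transcript test.

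**Figure D5:**
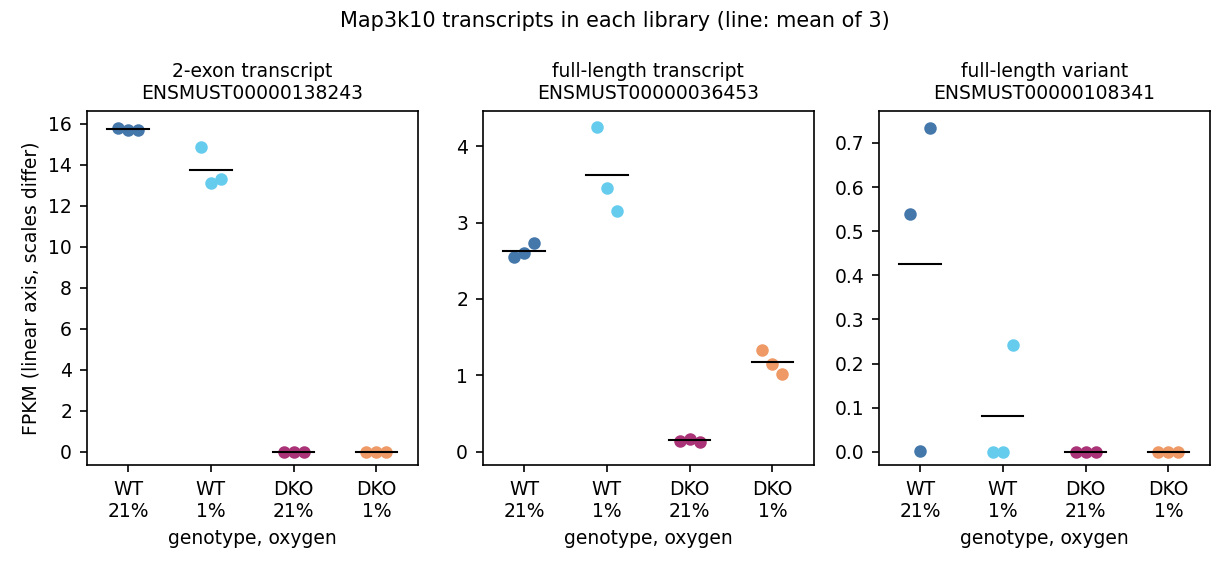
FPKM of the 3 Map3k10 transcripts in each library on linear axes that differ in scale, with a line at the mean of 3 libraries (WT, wild type; DKO, double knockout). The 2-exon transcript is at 0 in all double knockout libraries, and the full-length one is higher at 1% than at 21% oxygen in both genotypes.

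Map3k12 RNA was spread over more forms, most of them minor. The leading ENSMUST00000023812 (14 exons, 5185 bases, minus strand of chromosome 15) was at 7.10 to 8.17 FPKM in wild type and 7.46 to 9.35 FPKM in the double knockout. It held 90.6 ± 1.83% of the sum in wild type and 88.4 ± 8.21% in the double knockout (SD, n = 6, exact permutation p = 0.680). The lowest share, 73.0%, was in double knockout normoxia replicate 3, where ENSMUST00000169377 (1.02 FPKM) and ENSMUST00000169367 (0.968 FPKM) were at their highest. By oxygen the share gave p = 0.773 in the exact permutation test. The leading transcript passed in none of the 5 comparisons in limma (0 at an unadjusted p below 0.05), and its log2 difference between genotypes was 0.08 in normoxia (95% interval -0.11 to 0.27) and 0.04 in hypoxia (-0.15 to 0.23). Some short Map3k12 forms alternated between 0 and up to 0.968 FPKM among libraries of a group, on an estimated 5.88 fragments or fewer.

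Genes that overlap the kinases were examined because libraries are not stated to keep the strand of the RNA, so that reads in shared exons cannot be assigned by strand. They were chosen after their values were seen. Ttc9b lies on the other strand at the 3′ end of Map3k10 (chr7:27653915-27657346) and shares 612 exonic bases with it. It was at 0, 0 and 0.0228 FPKM in normoxic and 0.0478, 0.0246 and 0.0431 FPKM in hypoxic wild type cells, and at 0.0689, 0.0696 and 0.0686 FPKM in normoxic and 0.314, 0.342 and 0.229 FPKM in hypoxic double knockout cells. The last group stood above the rest, as an estimated 8.89 to 12.9 fragments against at most 2.97 elsewhere. In limma without the filter Ttc9b rose with hypoxia in the double knockout by 0.28 (adjusted p = 0.000131, where 20.1% of genes passed) and was higher in the double knockout in hypoxia by 0.32 (limma adjusted p = 0.000173). The difference between its responses was 0.23 (limma adjusted p = 0.0925). Low Ttc9b values thus moved with the residual Map3k10 values, and their part in that result was not tested.

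Pcbp2, which encodes an RNA-binding protein, shares 1573 exonic bases with Map3k12 on the opposite strand. It ranged from 28.6 to 33.1 FPKM over the 12 libraries. Its log2 difference between genotypes was 0.07 in normoxia (limma adjusted p = 0.298) and 0.13 in hypoxia (limma adjusted p = 0.0379). The call in hypoxia was lost under 7 settings, among them the omission of double knockout hypoxia replicate 1 (limma adjusted p = 0.147) or of wild type hypoxia replicate 2 (limma adjusted p = 0.123). Pcnxl3, beside Map3k11, was at 7.23 to 10.6 FPKM and passed in none of the 5 comparisons in limma (2 at an unadjusted p below 0.05).

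The stretch before the start of Map3k10 is shown because the gene's summed level rose with hypoxia in the double knockout. That level came from the full-length transcript, which starts at 27674594, inside the window, and whose wild type difference did not pass. The window ends beside the start of the 2-exon transcript (27674581), whose value was 0 in every double knockout library. Hypoxia-inducible factors bind a core of ACGTG or GCGTG. The 250 bases upstream of the annotated RefSeq start (GRCm38.p6, chr7:27674582-27674831, minus strand, 5′ to 3′) hold ACGTG once, read on the reverse strand as CACGT, which is in capitals.
Map3k10: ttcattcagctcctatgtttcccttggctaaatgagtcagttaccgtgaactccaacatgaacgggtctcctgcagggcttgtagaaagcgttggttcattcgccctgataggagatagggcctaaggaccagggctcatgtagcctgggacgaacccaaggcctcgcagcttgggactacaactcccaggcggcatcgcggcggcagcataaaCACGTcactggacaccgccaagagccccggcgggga
Of 32851 such windows in the RefSeq table, 16.6% hold ACGTG on either strand and 38.6% hold ACGTG or GCGTG. Among the other kinases, the window upstream of the Map3k12 start at chr15:102510701-102510950 holds ACGTG, overlapping its own reverse as CACGTG, but the transcript starting there was at most at 0.0584 FPKM. The windows of Map3k11 and Map3k13 hold neither core, and those of Map3k9 and of the other Map3k12 start hold GCGTG only. The Map3k13 window ends at 21891968, beside the start of ENSMUST00000042065, while the annotated gene starts at 21794346. The Map3k11 window ends at 5689130, past the annotated start of its transcript at 5689037. A match of these letters is a description of the window.

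The remaining MAP kinase kinase kinases, which share the step of the mixed lineage kinases, showed no call between genotypes in normoxia, where 8.16% of all tested genes passed. Of 18 listed symbols, which include both the older and the newer symbol of Zak (Map3k20) and BC021891 (Map3k21), 16 were in the deposited file and 12 were tested, and in limma 0 passed in normoxia (0 at an unadjusted p below 0.05). Below that unadjusted p were 2447 of all 11378 tested genes. In hypoxia 2 were higher and 2 lower in the double knockout. With hypoxia 2 rose and 1 fell in wild type, and 4 rose and 3 fell in the double knockout. For scale, of all tested genes 10.5% rose and 10.4% fell with hypoxia in wild type, and 19.6% rose and 19.6% fell in the double knockout. Between genotypes 3.84% of genes were higher and 4.32% lower in the double knockout in normoxia, and 7.68% higher and 8.42% lower in hypoxia. The list's median log2 change with hypoxia was 0.08 in wild type and 0.07 in the double knockout, against 0.00 and 0.01 over all tested genes. The median difference between genotypes was -0.0011 in normoxia and -0.01 in hypoxia, against -0.0060 and -0.0049 over all genes. No difference of responses passed in limma, where 0.193% of all tested genes did. At an unadjusted p below 0.05 in limma there were 3, against 1820 of all 11378 tested genes.

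Among them Map3k4, an activator of the p38 and JNK branches, fell with hypoxia from 8.09 ± 0.355 to 6.15 ± 0.333 FPKM in wild type (limma adjusted p = 0.00125) and from 8.10 ± 0.260 to 5.01 ± 0.138 FPKM in the double knockout (SD, n = 3, limma adjusted p = 9.73e-06). Map3k7, which encodes TAK1, rose with hypoxia from 25.4 ± 0.444 to 32.3 ± 0.477 FPKM in the double knockout (SD, n = 3, limma adjusted p = 1.87e-05) and from 25.7 ± 0.361 to 28.4 ± 0.635 FPKM in wild type (limma adjusted p = 0.0133). The wild type call was lost without wild type hypoxia replicate 1 (limma adjusted p = 0.0598) and with only the libraries compared (0.0537). Map3k8, which encodes TPL2, rose from 3.53 ± 0.479 to 6.24 ± 0.459 FPKM in the double knockout (limma adjusted p = 0.000169). In wild type it went from 3.34 ± 0.353 to 4.43 ± 0.416 FPKM (limma adjusted p = 0.0307), a call lost without either wild type normoxia replicate 1 or 3 or wild type hypoxia replicate 1 or 2 (limma adjusted p = 0.0904 to 0.106) and with no filter (0.0719). In hypoxia Map3k7 and Map3k8 were higher in the double knockout by 0.18 and 0.42 (limma adjusted p = 0.00348 and 0.0111), and Map3k4 was lower (-0.25, limma adjusted p = 0.00929). BC021891, the older symbol of Map3k21 (MLK4) and picked out after its values were seen, did not exceed 0.0345 FPKM.

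Below the kinases, 9 of 11 JNK and p38 pathway kinases were tested. With hypoxia 1 rose in wild type, where 10.5% of all tested genes did, and 3 rose and 2 fell in the double knockout, where 19.6% of genes rose and 19.6% fell. Between genotypes 1 was higher in the double knockout in normoxia, where 3.84% of genes were. In hypoxia 0 passed in limma, where 16.1% of genes did. At an unadjusted p below 0.05 in limma there were 3, against 3341 of all 11378 tested genes. No difference of responses passed in limma, where 0.193% of all tested genes did. At an unadjusted p below 0.05 in limma there was 1, against 1820 of all 11378 tested genes. The median log2 change of the list was 0.03 with hypoxia in wild type, 0.06 in the double knockout, 0.01 between genotypes in normoxia and 0.02 in hypoxia, against 0.00, 0.01, -0.01 and 0.00 over all genes.

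Mapk8 (JNK1) rose with hypoxia from 18.3 ± 1.22 to 23.6 ± 1.13 FPKM in wild type (limma adjusted p = 0.00192) and from 18.1 ± 0.691 to 21.6 ± 1.16 FPKM in the double knockout (SD, n = 3, limma adjusted p = 0.00622). Map2k7, a direct substrate of the mixed lineage kinases that activates JNK, rose from 13.8 ± 1.03 to 16.4 ± 0.104 FPKM in the double knockout (limma adjusted p = 0.0113). In wild type its log2 difference was 0.12 (limma adjusted p = 0.200), and the difference between these responses was 0.11 (limma adjusted p = 0.578). Map2k4, also such a substrate, differed with hypoxia by 0.13 in the double knockout (limma adjusted p = 0.131). Mapk11 (p38 beta) was higher in the double knockout than in wild type in normoxia, at 27.0 ± 0.573 against 22.6 ± 1.02 FPKM (limma adjusted p = 0.00592). It fell with hypoxia in the double knockout to 22.1 ± 0.405 FPKM (limma adjusted p = 0.000627). Its wild type libraries averaged 22.0 ± 1.15 FPKM in hypoxia, and the genotype difference in hypoxia was 0.01 on the log2 scale (limma adjusted p = 0.898). Between the responses of Mapk11 the difference was -0.24 (limma adjusted p = 0.116).

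Of 19 genes for activators, scaffolds and turnover of the kinases, 17 were tested. With hypoxia 2 rose and 1 fell in wild type, and 9 rose and 1 fell in the double knockout. Over all tested genes 10.5% rose and 10.4% fell in wild type, and 19.6% rose and 19.6% fell in the double knockout. The list's median log2 changes were 0.06 and 0.17, against 0.0023 and 0.0088 over all genes. Between genotypes 1 was higher and 2 lower in the double knockout in normoxia (3.84% and 4.32% of all genes), and 4 were higher in hypoxia (7.68% of all genes), with a median of 0.02 at each oxygen level, against -0.0060 and -0.0049 over all genes. No difference of responses passed in limma, where 0.193% of all tested genes did. At an unadjusted p below 0.05 in limma there were 6, against 1820 of all 11378 tested genes.

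Map4k4, a kinase upstream of the JNK branch, rose with hypoxia from 279 ± 5.27 to 331 ± 1.90 FPKM in wild type (limma adjusted p = 0.000174) and from 293 ± 6.20 to 379 ± 5.56 FPKM in the double knockout (SD, n = 3, limma adjusted p = 3.12e-06). Fbxo45, part of the ubiquitin ligase that turns over DLK in neurons, fell from 20.3 ± 0.0297 to 17.3 ± 0.507 FPKM in wild type (limma adjusted p = 0.00372) and from 20.0 ± 0.142 to 16.6 ± 0.767 FPKM in the double knockout (limma adjusted p = 0.000404). Map4k5 was higher in the double knockout in hypoxia, at 56.4 ± 0.850 against 44.8 ± 1.54 FPKM (limma adjusted p = 0.000129). In normoxia it was at 49.0 ± 1.75 against 43.2 ± 0.323 FPKM (limma adjusted p = 0.0108), a call lost without double knockout normoxia replicate 2 (limma adjusted p = 0.0515). Hsp90aa1, a chaperone of kinases, was lower in the double knockout in normoxia (240.9 ± 2.33 against 270.0 ± 7.72 FPKM, limma adjusted p = 0.0105) and rose there with hypoxia to 290.0 ± 7.59 FPKM (limma adjusted p = 8.97e-05). In wild type its log2 difference with hypoxia was 0.09 (limma adjusted p = 0.0823), and the difference between these responses was 0.18 (limma adjusted p = 0.106).

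Some calls in that list were lost under other settings. Usp9x, a deubiquitinase that acts on DLK, differed between genotypes in normoxia by -0.19 (limma adjusted p = 0.0470), a call that 15 of its 19 alternative settings lost, among them quantile normalization, equal library medians and no filter. The limma adjusted p was at most 0.159, without wild type normoxia replicate 2, where the difference was -0.13. Spag9 (JIP4), a JNK scaffold, differed with hypoxia in wild type by 0.14 (limma adjusted p = 0.0257). Under quantile normalization its difference was 0.08 (limma adjusted p = 0.118), and without either wild type normoxia replicate 1 or 3 or wild type hypoxia replicate 1 or 2 the limma adjusted p was 0.0737 to 0.103. Map4k3 was higher in the double knockout in hypoxia by 0.22 (limma adjusted p = 0.0125, and 0.0511 without wild type hypoxia replicate 2).

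Of 10 targets of JNK signalling 9 were tested. With hypoxia 4 rose and 1 fell in wild type, and 4 rose and 3 fell in the double knockout. Over all tested genes 10.5% rose and 10.4% fell in wild type, and 19.6% moved each way in the double knockout. The list's median log2 changes were 0.14 and 0.10, against 0.0023 and 0.0088 over all genes. Between genotypes 1 was lower in the double knockout at each oxygen level (4.32% of all genes in normoxia and 8.42% in hypoxia), with medians of 0.08 in normoxia and -0.07 in hypoxia, against -0.0060 and -0.0049 over all genes. No difference of responses passed in limma, where 0.193% of all tested genes did. At an unadjusted p below 0.05 in limma there were 6, against 1820 of all 11378 tested genes. The median difference of responses was -0.23 in the list against 0.00 over all genes.

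Junb rose with hypoxia from 30.2 ± 1.19 to 64.8 ± 8.75 FPKM in wild type (limma adjusted p = 1.96e-05) and from 36.8 ± 2.23 to 61.6 ± 6.34 FPKM in the double knockout (SD, n = 3, limma adjusted p = 0.000117). Jund rose in wild type from 21.8 ± 1.16 to 27.7 ± 2.39 FPKM (limma adjusted p = 0.00348) and was lower in the double knockout in hypoxia, at 23.1 ± 1.01 FPKM (limma adjusted p = 0.0168). The genotype call was lost without double knockout hypoxia replicate 3 or wild type hypoxia replicate 2 (limma adjusted p = 0.0658 and 0.0655). Between the responses of Jund the difference was -0.23 (limma adjusted p = 0.231). Atf2 rose with hypoxia in the double knockout from 14.4 ± 0.422 to 18.8 ± 0.967 FPKM (limma adjusted p = 0.000122). In wild type its log2 difference was 0.12 (limma adjusted p = 0.0863), and the difference between these responses was 0.24 (limma adjusted p = 0.122). Bbc3, which encodes the pro-apoptotic protein PUMA, fell in the double knockout from 24.2 ± 0.468 to 19.2 ± 0.955 FPKM (limma adjusted p = 0.000654). In wild type Bbc3 also fell, from 22.3 ± 0.861 to 19.6 ± 1.37 FPKM (limma adjusted p = 0.0350). The difference between its responses was -0.14 (limma adjusted p = 0.403). Ddit3 went from 23.1 ± 1.09 to 27.9 ± 1.82 FPKM with hypoxia in wild type (limma adjusted p = 0.0281), a call lost without wild type hypoxia replicate 1 or wild type normoxia replicate 1 or 3 (limma adjusted p = 0.0739 to 0.114) and with no filter (0.0611). Atf3 was at 5.96 ± 0.0929 FPKM in double knockout normoxia against 7.38 ± 0.541 FPKM in wild type (limma adjusted p = 0.0204), a call lost without replicate 2 or 3 of either group (limma adjusted p = 0.0615 to 0.0851) and with only the libraries compared (0.0623).

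The genes whose levels ran closest to each kinase over the 12 libraries were sought by Pearson's r on log2(FPKM + 1), as a description in which the group differences are shared by all points. For Map3k10 they included Fstl1, a secreted follistatin-like protein (r = 0.990), and Nptx1, a pentraxin (r = 0.983). For Map3k11 they were Erdr1 (r = 0.991), Nucb1, a calcium-binding Golgi protein (r = 0.991), and Phgdh, the first enzyme of serine synthesis (r = 0.984). Fstl1 was at 298 to 319 FPKM in wild type and 231 to 249 FPKM in the double knockout. Erdr1 was at 8.96 to 13.6 FPKM in wild type and at most at 0.104 FPKM in the double knockout. For Map3k12 the closest were Thap7 (r = 0.796), Stat5a (r = 0.789) and Slc19a1 (r = 0.787), and their values overlapped between the genotypes as its own did.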

How the data were processed

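Per the labels' protocols, an RNeasy Plus kit gave the RNA and a NEBNext Ultra kit the libraries. The submitters' processing notes name TopHat2 for alignment. The authors deposited FPKM values of transcripts. Their tool, genome build and annotation were not given in the sources used here. Genes are sums of FPKM over transcripts. Genes averaging 1 FPKM or more, and transcripts averaging 0.5 FPKM or more, were fitted as log2(FPKM + 1) in limma 3.58.1 (R 4.3.3) with 1 term per group, a variance trend and 8 residual degrees of freedom. Benjamini-Hochberg adjustment ran over all features of a comparison, with a threshold of 0.05. Single values were compared by two-sided exact permutation tests (SciPy 1.17.1).

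Depth came from whole-fragment steps among low FPKM of 9560 genes with a single transcript. With 250 bases taken off each length, 90.0 to 92.5% of these values lay within 0.1 of a whole fragment (20% if steps were absent). GENCODE M21 (GRCm38) gave positions for 95.2% of the transcripts. The members and lists were chosen with earlier results of these data known. Named were the members, up to 3 genes of each list and comparison with the smallest p among those called, and the 3 genes most correlated with each tested member, of which 1 is not reported here. Alternatives were another pseudocount, filter or normalization, a fit to only the libraries compared, a replicate block, and each library left out in turn. A pseudocount of 0.1 FPKM together with no filter was added after seeing the data. The limma steps were tested on simulated data.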

Additional observations from a re-analysis of the deposited data

Results flagged for a closer look

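Map3k10 met the test of a difference between the hypoxia responses of the 2 genotypes as a summed gene, not as its full-length transcript. It passed the expression filter through wild type, its double knockout mean being 0.659 FPKM, and the limma adjusted p over all settings ran from 1.86e-05 to 0.0285. The change of log2(FPKM + 1) with hypoxia was larger in the double knockout than in wild type by 1.02 (SE 0.0995, limma adjusted p = 0.00375), being 0.92 in the double knockout and -0.10 in wild type. All 3 hypoxic double knockout libraries lay above the 3 normoxic ones. On the linear scale the hypoxic mean minus the normoxic mean was 1.02 FPKM in the double knockout and -1.33 FPKM in wild type. For the full-length transcript alone it was 1.02 and 0.990 FPKM, and its difference of responses did not pass (limma adjusted p = 0.218, from 0.0779 to 0.368 over the other settings).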

How the results depend on the processing

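The 295 alternative values of member genes and 320 of member transcripts in limma, and the 188 of the permutation tests, kept their direction where called and their side of the threshold. The permutation tests of Map3k10 and Map3k11 by oxygen say nothing about stability, since the gap between genotypes sets their spread. Those by genotype separate the genes that the double knockout targets, and the Map3k10 share test took its transcript through the double knockout. Of 838 alternative values of other named genes, 47 lost a call and 4 gained one, and 66 of 760 list counts moved by over 1.5 times. The count of genes that differed in their response went from 22 to 12 under quantile normalization, and that of transcripts from 0 to 31 with no filter. With the libraries of the comparison alone, 616 genes differed between genotypes in normoxia. Leaving out 1 library gave 1 to 39 genes for the difference of responses (within 1.5 times of 22 only without double knockout hypoxia replicate 2 or wild type hypoxia replicate 3). It gave 1175 to 1873 genes for genotype in hypoxia (lowest without wild type hypoxia replicate 2, then double knockout hypoxia replicate 1, 1185), 583 to 935 in normoxia (lowest without wild type normoxia replicate 2, then double knockout normoxia replicate 2, 617), 1382 to 2393 for hypoxia in wild type (lowest without wild type hypoxia replicate 1, then 2, 1495) and 3692 to 4507 in the double knockout. For transcripts the ranges were 0 to 2, 740 to 1212, 346 to 562, 773 to 1640 and 3263 to 4319. Transcript counts moved by over 1.5 times without any double knockout hypoxia library or wild type hypoxia replicate 2 (genotype in hypoxia), without double knockout normoxia replicate 2 or wild type normoxia replicate 2 or 3 (genotype in normoxia), and without wild type normoxia replicate 1 or 3 or wild type hypoxia replicate 1 or 2 (hypoxia in wild type). The causes of these shifts, the smaller number of samples among them, were not tested.

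Little pairing by replicate number was seen in the libraries, though this does not show that libraries of the same number were made separately. Over 18 pairs with the same number the correlation of deviations was -0.0841 to 0.167, with 1 above 0.1, and 5 of 12 libraries correlated best with their own number. With the replicate block 1 gene differed in its response, and 2291 and 4415 genes passed for hypoxia in wild type and in the double knockout, and 899 and 1783 for genotype in normoxia and in hypoxia. Depth limits Map3k9 and Map3k13, which rest on an estimated 23.7 to 45.5 fragments per library.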
